A study of Mus musculus with 18 samples.

Results

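This account describes 40 mouse genes of DNA repair and the DNA damage checkpoint in thymocytes, the developing T cells of the thymus. The 40 were taken by symbol from a fixed list that spans break sensing, homologous recombination, interstrand crosslink repair, base excision, mismatch repair and the SMC5/6 complex. All 40 matched 1 gene each among the 22619 genes of the deposited count table. Bulk RNA was sequenced in 18 libraries of wild-type thymi that had been transplanted 28 days earlier. DN3 cells are the CD4- CD8- stage at which the T-cell receptor beta gene is assembled, and DP cells carry both CD4 and CD8. Each stage was sampled under a condition labelled turnover (4 libraries a stage) and one labelled autonomy (5 libraries a stage). By the usual meaning of these terms, incoming progenitors replace the resident thymocytes during turnover, while under autonomy the graft keeps up T-cell production from its own cells. The sources used here give no host genotype, strain, age or sex. Nor do the labels say whether libraries came from separate animals, so a p-value reflects only the spread between these libraries, which may be technical.

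Repair genes serve cells that copy their DNA and cells that cut it. At a break, the complex of Mre11a, Rad50 and Nbn activates the kinase Atm, while single-stranded DNA at stalled forks activates Atr, whose partner Topbp1 helps to switch on the checkpoint kinase Chek1. Homologous recombination, led by Brca1, Brca2 and their partners, copies the sister chromatid and so works after replication, whereas Trp53bp1 and Rif1 favour end joining. Thymocytes cut their own receptor genes, at the beta locus in DN3 cells and at the alpha locus in DP cells, and DN3 cells that pass the beta checkpoint divide rapidly before most DP cells come to rest. Many replication and recombination genes are known targets of E2F factors, which act at the entry into S phase.

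Promoter sequences are shown first because E2F-type sites mark many S-phase genes, and S-phase genes moved beside the members in the comparisons that follow. RefSeq windows on build GRCm38.p6, running from 250 bases before to 50 bases after the start, were found for 33 of the 40 members. An E2F-type site (TTTCCCGC, TTTCGCGC, TTTGCCGC or TTTGGCGC on either strand, some of which can share bases with an NRF1 site) was present in 7 of the 33, or 21.2%. It was present in 2.3% of all 27025 promoters in the table, in 4.5% of those of the genes tested in DN3 cells, and in 36.4% of those of 28 S-phase genes. The 7 were Brca2, Bard1, Topbp1, Chek2, Fancg, Mdc1 and Msh6, and in Msh6 the site lay in the 50 bases after the start. None of the 7 windowed members that were higher in DN3 autonomy held one, against 3 of the 6 windowed members called in none of the 5 edgeR comparisons. The window of Chek1, among those 7, lay wholly inside its annotated gene, as did those of Fanci, Nsmce4a and Smc5. Bases before the outermost start of these genes were thus not searched. Exo1 and Nbn, also higher in DN3 autonomy, had no window, so this contrast is incomplete. The CHR element TTTGAA was in 12.1% of member promoters, 11.9% of those of the genes tested in DN3 cells and 18.1% of all promoters. In the same order the CCAAT box was in 45.5%, 40.0% and 37.9%, and the NRF1 site in 9.1%, 11.8% and 4.8%. The sequences below, chosen after the matches were seen, are the 4 members that passed a test and held an E2F-type site before the start, with Ung, the member with the largest difference between the stages, for comparison. Each is the part of the window that no annotated exon covers, on the strand of its gene, with the E2F-type site in capitals, and a match is a description of letters and not of binding.
Brca2, chr5:150522371-150522620, plus strand: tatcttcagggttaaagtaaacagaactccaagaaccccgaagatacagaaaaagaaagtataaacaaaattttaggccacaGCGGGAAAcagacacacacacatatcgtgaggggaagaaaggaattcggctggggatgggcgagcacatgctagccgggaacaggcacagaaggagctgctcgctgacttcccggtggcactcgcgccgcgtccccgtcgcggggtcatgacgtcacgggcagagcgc
Topbp1, chr9:103305083-103305214, plus strand: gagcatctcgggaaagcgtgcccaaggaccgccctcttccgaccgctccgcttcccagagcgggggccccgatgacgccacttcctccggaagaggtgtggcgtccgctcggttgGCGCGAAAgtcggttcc
Chek2, chr5:110839778-110839978, plus strand: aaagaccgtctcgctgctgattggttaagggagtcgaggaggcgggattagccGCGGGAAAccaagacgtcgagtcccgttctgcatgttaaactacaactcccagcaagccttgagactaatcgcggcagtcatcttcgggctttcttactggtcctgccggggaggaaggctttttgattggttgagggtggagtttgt
Bard1, chr1:71103147-71103222, minus strand: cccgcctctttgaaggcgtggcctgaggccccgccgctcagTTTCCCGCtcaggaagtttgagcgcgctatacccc
Ung, chr5:114130185-114130385, plus strand: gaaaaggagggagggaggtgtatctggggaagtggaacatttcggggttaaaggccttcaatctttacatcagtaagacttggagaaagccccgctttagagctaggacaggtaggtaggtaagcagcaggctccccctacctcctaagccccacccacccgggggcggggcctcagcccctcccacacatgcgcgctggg

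Total counts were 7426834 to 21808512 per DN3 library and 5032273 to 24191044 per DP library. Most stage markers followed the labels. Of 5 DN3-stage genes, 3 were lower and 1 was higher in DP than in DN3 cells in each condition, and 1 was not called (edgeR). Of 5 DP-stage genes, 4 were higher in DP cells in turnover and 5 in autonomy. The DN3 gene Il2ra stood at 256 to 635 CPM (TMM-scaled counts per library of equal size) in DN3 libraries and 1.24 to 41.3 CPM in DP libraries. The DN3 turnover library RP1141B stood apart, with a summed level of 5 DP-stage genes of 1388 CPM, whereas the median of its group was 116 CPM. In the DN3 autonomy libraries that sum was 198 to 322 CPM, above the turnover median. Transcripts of other cells also moved with the groups: the 5 natural killer genes summed to 113 to 163 CPM in DN3 turnover and 6.07 to 65.5 CPM in DN3 autonomy, and the 5 mast cell and granulocyte genes to 50.4 to 120 CPM and 3.05 to 27.3 CPM. The sums of 5 further lists were also higher in DN3 turnover without overlap: 52.3 to 91.7 against 13.5 to 42.4 CPM for 6 B-cell genes, 22.4 to 38.1 against 5.78 to 17.4 CPM for the macrophage genes, 13.1 to 30.1 against 2.52 to 10.6 CPM for the dendritic cell genes, 90.3 to 113 against 29.1 to 83.6 CPM for 5 thymic epithelial genes, and 83.5 to 103 against 42.5 to 65.3 CPM for 5 genes of fibroblasts and endothelium. The 7 macrophage genes summed to 20.6 to 136 CPM in DP autonomy and 3.40 to 35.5 CPM in DP turnover, with 1 of the 7 at 0 in every DP autonomy library, and the 6 dendritic cell genes reached 227 CPM in DP autonomy. The part of these transcripts in the results was not tested. The DN3 autonomy library RP1134, the shallowest DN3 library, was the highest of its group in 18 of the 40 members, with a median log2 difference from the others of 0.30 over the members and -0.10 over all genes.

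Levels are compared between genes only per kilobase of exon. In DN3 turnover the highest members on that scale were Parp1, which marks DNA breaks with ADP-ribose chains, at 67.9 ± 7.39 CPM per kilobase (SD, n = 4), Nbn at 58.3 ± 6.78, Usp1 at 54.3 ± 8.20, Parp2 at 52.0 ± 11.7 and Msh6 at 49.97 ± 9.05. Parp1 exceeded Nbn by more than the SD of either, and each of the others differed from its neighbour by less than their SDs. Xrcc2, a recombination gene, was the lowest of the members there at 1.63 CPM per kilobase. All 40 members passed the filter on low counts in every comparison.

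In DN3 cells, Exo1, Rad51ap1, Rad54l, Brca1, Nbn, Chek1, Ung, Polq and Smc6 were higher in autonomy, and Trp53bp1 was lower. Of the 40 members, 9 were thus higher than in turnover and 1 was lower (edgeR quasi-likelihood test, adjusted p under 0.05), beside 6.53% higher and 8.35% lower of the 10766 genes tested. The median log2 change was 0.38 over the members and -0.05 over all genes, and 33 of the 40 members had a positive value. The libraries did not overlap between the conditions for 12 members that were higher and 1 that was lower, a property of 8.29% and 10.1% of all genes tested. In each list of values below, turnover is given for RP1140A, RP1140B, RP1141A and RP1141B, and autonomy for RP1133, RP1134, RP1135, RP1137 and RP1138.

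**Figure D1:**
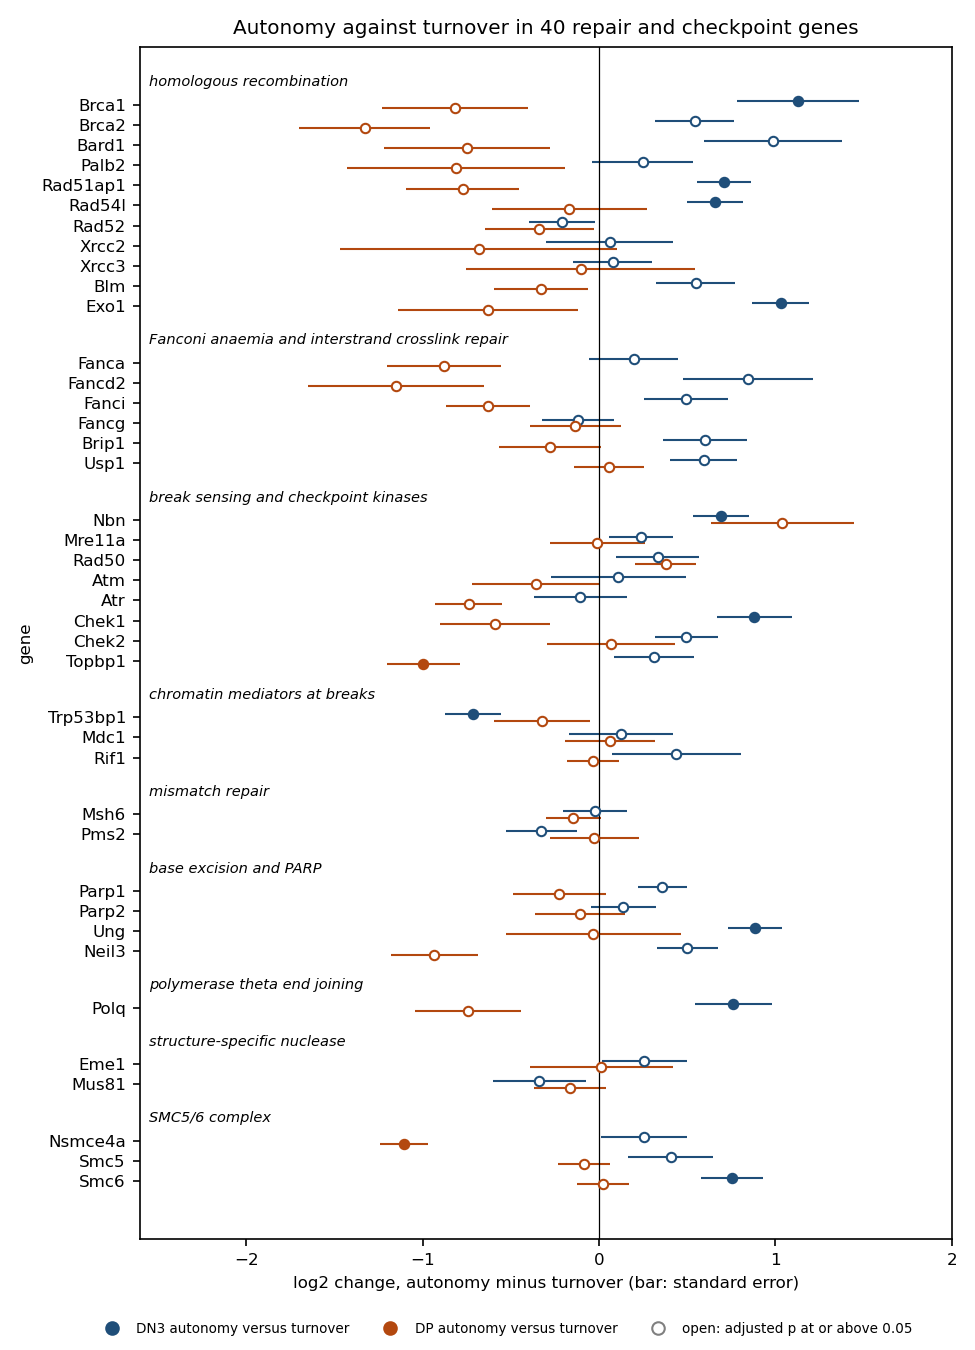
Log2 change from turnover to autonomy (x axis) of each of the 40 genes (y axis, by role) in DN3 and DP cells, with bars of 1 standard error; filled points passed an adjusted p of 0.05. In DN3 cells 33 of 40 points lie above 0, and in DP cells 33 of 40 lie below 0.

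Homologous recombination held 4 of the 9 higher members, out of 11 in the group, and none of its members fell. Exo1, the exonuclease that resects break ends, stood at 83.9, 85.9, 84.5 and 101 CPM in turnover and at 163, 231, 157, 167 and 196 CPM in autonomy. Every autonomy library was above every turnover library, and the rise was 2.04-fold (log2 1.03 ± 0.16 SE, adjusted p = 0.0019). Rad51ap1, which promotes strand pairing in recombination, stood at 52.4, 66.6, 68.7 and 66.7 CPM in turnover and at 109, 91.5, 94.3, 120 and 109 CPM in autonomy, again without overlap (log2 0.71 ± 0.15, adjusted p = 0.00975). Rad54l, a motor protein of the same step, rose by log2 0.66 ± 0.16 (adjusted p = 0.0166). Exons of Rad54l overlap those of Lrrc41 on the opposite strand over 1184 bases, and no source used here says whether counting was by strand. Brca1, the scaffold of the pathway, rose by log2 1.13 ± 0.35 (adjusted p = 0.0436), with turnover libraries at 18 to 43.1 CPM and autonomy libraries at 35.2 to 92.4 CPM, which overlap through the turnover library RP1140B. Its call held in 3 of the 9 fits that left out 1 library. Its partners did not pass: Bard1 had a log2 value of 0.99 ± 0.39, Brca2 of 0.54 ± 0.22 and Palb2 of 0.25 ± 0.29. The strand-exchange helpers Xrcc2 and Xrcc3 had values of 0.06 and 0.08, the helicase Blm 0.55, and Rad52 was the only member of the group with a negative value, -0.21.

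No member of the Fanconi anaemia group, which unhooks crosslinked strands, passed in DN3 cells (edgeR), although 5 of 6 values were positive. At an unadjusted p under 0.05, 3 were higher, with no share of all genes given at that threshold. Usp1, the enzyme that removes ubiquitin from Fancd2, lay just outside the threshold with log2 0.59 ± 0.19 (adjusted p = 0.0516), and its libraries at 162 to 230 CPM in turnover and 258 to 436 CPM in autonomy did not overlap. Fancd2 had a value of 0.85 ± 0.37, Brip1 of 0.60, Fanci of 0.49, Fanca of 0.20 and Fancg of -0.12.

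Among the 8 break sensors and checkpoint kinases, Nbn and Chek1 rose. Nbn, the subunit that brings Atm to breaks, stood at 144, 127, 168 and 152 CPM in turnover and at 263, 184, 249, 288 and 219 CPM in autonomy (log2 0.69 ± 0.16, adjusted p = 0.012). Its autonomy libraries all lay above its turnover libraries. Chek1, the kinase that halts the cycle when forks stall, stood at 77.4, 119, 87.4 and 51.0 CPM in turnover and at 174, 171, 148, 147 and 134 CPM in autonomy (log2 0.88 ± 0.21, adjusted p = 0.0164). The lowest Chek1 value came from RP1141B, the library with DP-stage transcripts, and the groups were still apart. Chek2, the kinase that acts below Atm, had a log2 value of 0.50 ± 0.18 without overlap of the libraries (adjusted p = 0.0764). Rad50, Topbp1 and Mre11a had values of 0.33, 0.31 and 0.24, and the apex kinases Atm and Atr had values of 0.11 and -0.11.

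Trp53bp1, the mediator that protects break ends from resection, was the member that went the other way. It stood at 140, 143, 139 and 111 CPM in DN3 turnover and at 95.4, 65.7, 96.8, 77.5 and 73.6 CPM in DN3 autonomy. All 5 autonomy libraries lay below the 4 turnover libraries, and the fall was 1.64-fold (log2 -0.71 ± 0.16, adjusted p = 0.0113). Exons of Trp53bp1 overlap those of Tubgcp4 on the opposite strand over 2130 bases. The other mediators, Mdc1 and Rif1, had log2 values of 0.13 ± 0.30 and 0.44 ± 0.37, and Rif1 reached 864 CPM in RP1134 while the other autonomy libraries stood at 193 to 373 CPM.

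Ung, the glycosylase that removes uracil from DNA, was the base excision member that rose. It stood at 59.0, 62.6, 71.6 and 72.0 CPM in turnover and at 127, 105, 118, 115 and 152 CPM in autonomy, a 1.85-fold rise with no overlap (log2 0.88 ± 0.15, adjusted p = 0.0033). Neil3, a glycosylase linked to replication, had a log2 value of 0.50 ± 0.17 (adjusted p = 0.069), Parp1 of 0.36 and Parp2 of 0.14. Polq, the polymerase of microhomology end joining, stood at 32.7, 37.7, 39.3 and 31.8 CPM in turnover and at 45.1, 87.5, 54.1, 50.6 and 63.8 CPM in autonomy (log2 0.76 ± 0.22, adjusted p = 0.0335). Smc6, a core arm of the SMC5/6 complex that holds replicated chromatids for repair, stood at 233, 287, 279 and 280 CPM in turnover and at 337, 611, 426, 443 and 465 CPM in autonomy (log2 0.75 ± 0.18, adjusted p = 0.0143). In both genes RP1134 was the highest library, and the groups stayed apart among the other libraries too. Smc5 and Nsmce4a of the same complex had values of 0.41 and 0.26, the mismatch repair genes Msh6 and Pms2 of -0.02 and -0.33, and the nuclease partners Eme1 and Mus81 of 0.26 and -0.34.

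Without RP1134 and RP1141B, 8 of the 10 DN3 calls remained, and Brca1 and Polq were lost. Leaving out the turnover library RP1140A alone ended 5 calls (Brca1, Rad54l, Chek1, Polq and Smc6), and a fit of all 18 libraries with 1 shared spread kept only Chek1 and Smc6. In the authors' deposited table, 13 members were higher and 1 was lower, among them all 10 called here, beside 8.96% higher and 10.3% lower of all genes with an adjusted p there.

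**Figure D2:**
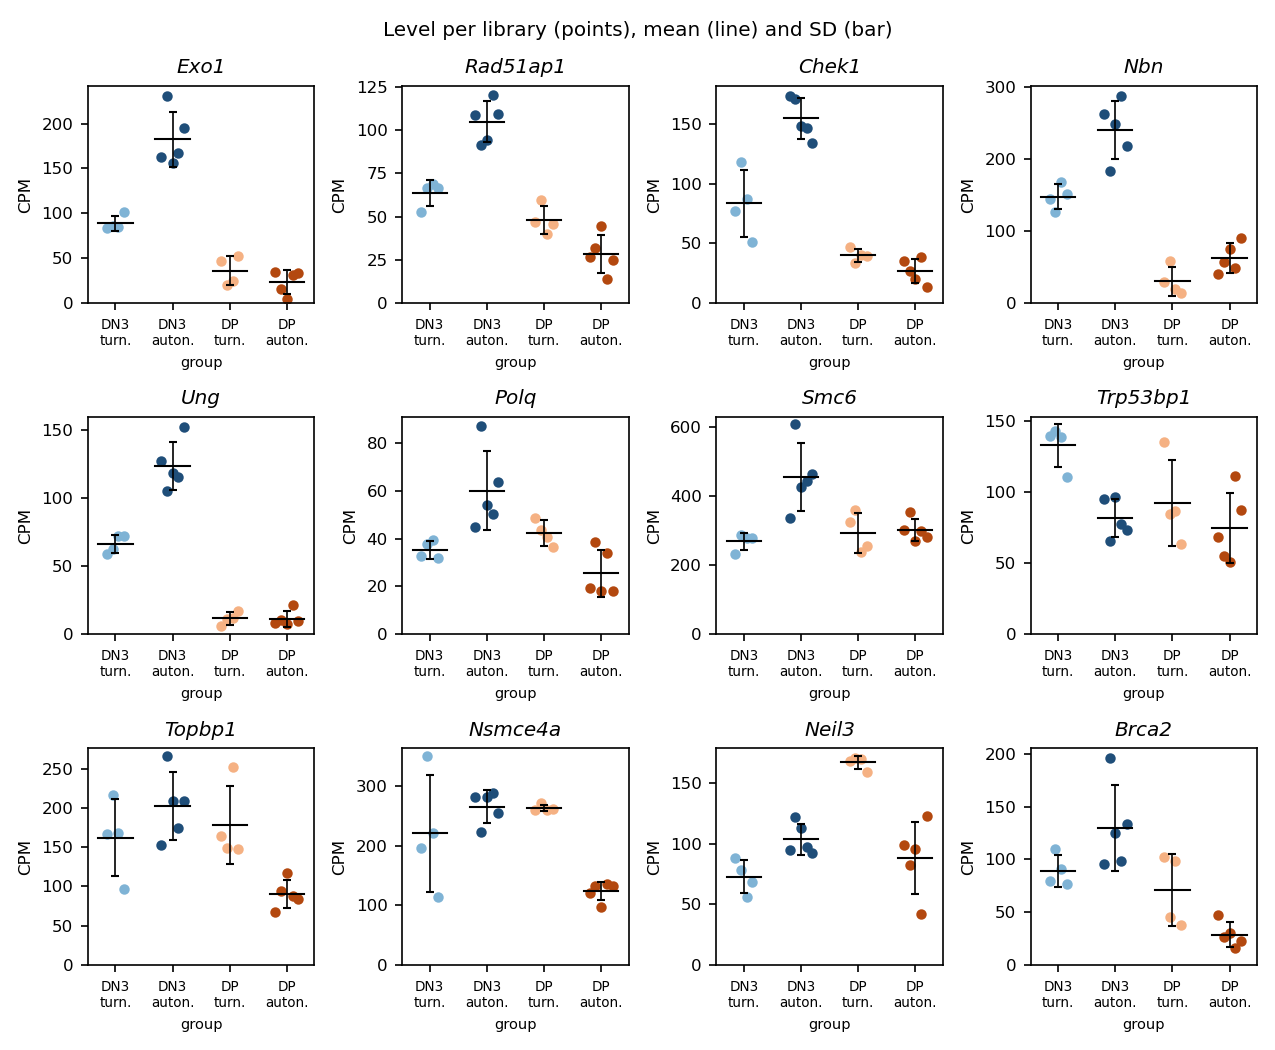
Level in CPM (y axis, from 0) of 12 of the genes in each library (points) of the 4 groups (x axis), with the mean (line) and SD (bar). Exo1, Rad51ap1, Chek1, Nbn, Ung, Polq and Smc6 are highest in DN3 autonomy, where Exo1 stands at 157 to 231 CPM, and Topbp1 and Nsmce4a are lowest in DP autonomy, where Nsmce4a stands at 97.9 to 136 CPM.

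Genes of DNA replication moved the same way. Of 28 S-phase genes, none of them a member, 25 were higher in DN3 autonomy and none was lower, with a median log2 change of 0.83. The shares over all genes tested were 6.53% higher and 8.35% lower, with a median of -0.05. Dut, which keeps uracil out of the nucleotide pool, rose by log2 1.18 ± 0.16 (adjusted p = 0.000851), and Mcm5, a subunit of the replicative helicase, by 0.90 ± 0.14 (adjusted p = 0.00186). The summed level of the 28 genes was 9410 to 10360 CPM in DN3 turnover and 13901 to 17783 CPM in DN3 autonomy, and that of the 40 members was 3612 to 4276 CPM and 4669 to 6730 CPM. Neither sum overlapped between the conditions, and a larger share of cycling cells cannot be told apart from more RNA of these genes per cell in bulk samples.

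**Figure D3:**
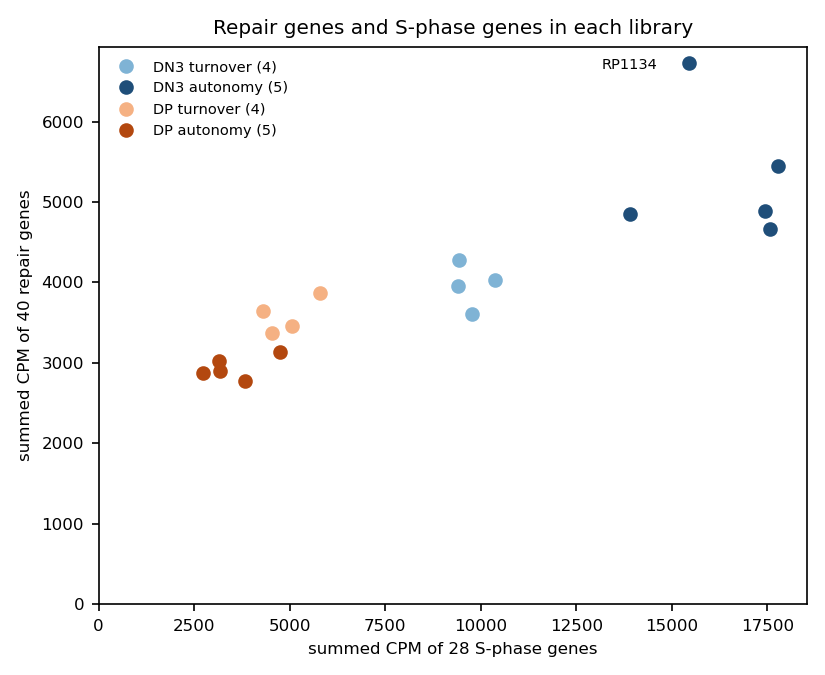
Summed CPM of the 40 repair genes (y axis) against that of 28 S-phase genes (x axis) in each of the 18 libraries, coloured by group. The DN3 autonomy libraries lie at the upper right (4669 to 6730 CPM on the y axis) and the DP autonomy libraries at the lower left (2775 to 3141 CPM); RP1134 is the library at 6730 CPM.

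The wider repair machinery, 116 further genes of which 114 were tested in DN3 cells, had 17 higher and 5 lower. Of all genes tested, 6.53% were higher and 8.35% lower. Gen1, a resolvase of recombination junctions, rose by log2 1.70 ± 0.25, the replicative ligase Lig1 by 0.84 ± 0.14, the fork protector Timeless by 0.92 ± 0.17 and Rpa2, which coats single-stranded DNA, by 0.74 ± 0.14. Those lower included Xpc, a damage sensor of nucleotide excision repair (log2 -0.95 ± 0.18), Parp3 (-1.93 ± 0.42), Dclre1c, the nuclease that opens hairpins in V(D)J recombination (-1.12 ± 0.26), and Mgmt, which reverses guanine alkylation (-1.26 ± 0.35). Further recombination genes held 10 of the 17 rises, out of 27 tested.

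In DP cells, Topbp1 and Nsmce4a were lower in autonomy than in turnover by edgeR. Of the 40, 0 were higher and 2 were lower, against 0.861% higher and 0.861% lower of the 10339 genes tested, and 33 of the 40 values were negative. DESeq2 and limma voom also called 0 higher, while DESeq2 called 5 lower (Brca2, Atr and Neil3 besides) and voom 4 (Atr and Neil3 besides). Both tools also called more of all genes than edgeR did (counts in the closing section), so 0.861% is not their share. At an unadjusted p under 0.05 edgeR had 2 higher and 10 lower members, with no share of all genes given at that threshold. The median log2 change was -0.30 over the members and -0.02 over all genes. The ranges of the libraries were apart for 1 member that was higher, Rad50, and for 5 that were lower (Fanci, Atr, Topbp1, Neil3 and Nsmce4a), where 4.25% and 3.87% of all genes tested had this property. Here the autonomy values are given for RP1133, RP1135, RP1136, RP1137 and RP1138.

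Nsmce4a, a regulatory subunit of the SMC5/6 complex, stood at 261, 272, 261 and 263 CPM in DP turnover and at 121, 133, 97.9, 136 and 132 CPM in DP autonomy. The ranges were far apart and the fall was 2.15-fold (log2 -1.11 ± 0.14, adjusted p = 0.00288). It passed the test without each of the 9 libraries in turn and in each of the 6 other analyses. Topbp1, the activator of Atr, stood at 164, 149, 252 and 148 CPM in turnover and at 67.7, 94.2, 117, 87.3 and 84.5 CPM in autonomy (log2 -0.996 ± 0.21, adjusted p = 0.0301). Its groups were apart, but the call was lost without any 1 of 7 of the 9 libraries, with an adjusted p of 0.101 without the highest, RP1141A. Both are printed or plotted above, Topbp1 with its E2F-type site and Nsmce4a among the levels by library.

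The other DP values did not pass in edgeR. Neil3 stood at 169, 171, 170 and 160 CPM in turnover and at 99.1, 82.6, 95.4, 42.1 and 123 CPM in autonomy (log2 -0.93 ± 0.25, adjusted p = 0.0752). Atr stood at 105 to 156 CPM and 57.9 to 98.3 CPM (log2 -0.74 ± 0.19, adjusted p = 0.068). Brca2 had a log2 value of -1.33 ± 0.37 (adjusted p = 0.0849), and its 11-member recombination group had no positive value. Nbn had the highest positive value, 1.04 ± 0.40, with turnover libraries at 13.4 to 58.3 CPM and autonomy libraries at 39.8 to 90.9 CPM. In the authors' deposited table, 5 members were lower, Topbp1, Nsmce4a, Atr, Neil3 and Brca2, and none was higher, beside 3.93% higher and 3.73% lower of all genes there. Without RP1133 and RP1135, the DP autonomy libraries with the most transcripts of other cells, Nsmce4a alone was called.

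Replication genes had mostly negative values in DP cells, with a median log2 change of -0.46 over the 28 and 1 lower, Mcm6 (-0.81 ± 0.17, adjusted p = 0.0301). Of 113 further repair genes tested with edgeR, 0 were higher and 2 were lower, beside 0.861% each way of all genes tested. At an unadjusted p under 0.05, 6 were higher and 15 lower, with no share of all genes given. The 2 lower genes were Ercc4, the nuclease subunit of excision repair (-1.21 ± 0.23), and H2afx, the histone marked at breaks (-0.996 ± 0.20). H2afx stood at 110 to 150 CPM in DP turnover and 48.6 to 81.1 CPM in DP autonomy.

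The change from turnover to autonomy differed between DP and DN3 cells for 7 members, all lower in DP. The edgeR model of all 18 libraries gave 0 members with a higher and 7 with a lower difference, against 2.88% and 2.61% of 11521 genes tested. At an unadjusted p under 0.05 the members had 0 and 17, with no share of all genes given at that threshold. The median difference was -0.67 on the log2 scale over the members and 0.06 over all genes, and 35 of the 40 values were negative. This comparison uses the same libraries as those above and is no separate evidence for them.

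Brca2 had the lowest of the called differences, -1.87 ± 0.46 (adjusted p = 0.0194). It stood at 79.6, 109, 90.7 and 76.5 CPM in DN3 turnover and at 95.8, 197, 126, 98.9 and 134 CPM in DN3 autonomy, where the groups overlap. In DP cells it stood at 103, 45.9, 98.4 and 38.3 CPM in turnover and at 47.7, 26.7, 30.5, 15.7 and 23.0 CPM in autonomy, where they also overlap. Rad51ap1 had a difference of -1.48 ± 0.34 (adjusted p = 0.0143), with DP turnover at 46.7, 59.5, 40.0 and 45.9 CPM and DP autonomy at 26.6, 32.0, 44.6, 13.7 and 25.1 CPM. Polq had a difference of -1.50 ± 0.37 (adjusted p = 0.0198), with DP libraries at 48.9, 43.7, 40.7 and 36.3 CPM in turnover and at 19.2, 38.5, 18, 33.8 and 18.2 CPM in autonomy.

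The checkpoint pair Chek1 and Topbp1 had differences of -1.46 ± 0.37 (adjusted p = 0.022) and -1.30 ± 0.32 (adjusted p = 0.0208). Chek1 stood at 46.9, 33.9, 40.2 and 39.3 CPM in DP turnover and at 34.9, 26.9, 20.5, 38.7 and 13.8 CPM in DP autonomy. Topbp1 stood at 167, 216, 168 and 96.9 CPM in DN3 turnover and at 153, 266, 209, 174 and 208 CPM in DN3 autonomy, which overlap. Topbp1 passed in DP cells, where it was lower in autonomy, and Chek1 in DN3 cells, where it was higher. In the stage where each did not pass, Topbp1 had a log2 value of 0.31 (DN3) and Chek1 of -0.59 (DP). The part of each stage in the 2 differences was not tested.

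Neil3 had a difference of -1.43 ± 0.31 (adjusted p = 0.0107) and Nsmce4a of -1.36 ± 0.30 (adjusted p = 0.0109). Neil3 stood at 88.3, 78.7, 56.3 and 68.3 CPM in DN3 turnover and at 94.7, 122, 113, 97.6 and 92.4 CPM in DN3 autonomy. Its DP libraries all lay above its DN3 libraries in turnover, while the ranges of the stages overlapped in autonomy. Nsmce4a stood at 196, 352, 222 and 115 CPM in DN3 turnover and at 283, 223, 282, 289 and 255 CPM in DN3 autonomy. Brca1 had a larger difference, -1.93 ± 0.58, that just missed the threshold (adjusted p = 0.0552). Leaving out RP1134 and RP1141B together kept 3 of the 7 calls, Rad51ap1, Neil3 and Nsmce4a, and ended those of Brca2, Chek1, Topbp1 and Polq.

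Among the S-phase genes 17 of 28 had a lower difference, among them Dut (-1.47 ± 0.21) and the cyclin gene Ccne1 (-2.87 ± 0.44), with none higher. Of 114 further repair genes, 12 were lower and none was higher, beside 2.61% lower and 2.88% higher of all genes tested. The lower genes included Timeless (-1.73 ± 0.27), H2afx (-1.35 ± 0.24) and Gen1 (-1.77 ± 0.36). At an unadjusted p under 0.05 in edgeR, 29 were lower and 5 higher, with no share of all genes given.

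The stages were then compared within each condition. In turnover, DP cells had 5 members above and 9 below DN3 cells, where 15.8% of all 11521 genes tested were higher and 19.1% lower. The median log2 difference was 0.01 over the members and -0.04 over all genes.

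Ung and Nbn had the largest falls in turnover. Ung stood at 59.0 to 72.0 CPM in DN3 turnover and at 5.77, 11, 11.7 and 17.1 CPM in DP turnover, a 5.76-fold difference (log2 -2.52 ± 0.33, adjusted p = 7.82e-06). Nbn stood at 127 to 168 CPM in DN3 and at 28.8, 58.3, 19.2 and 13.4 CPM in DP turnover, a 4.88-fold difference (log2 -2.29 ± 0.34, adjusted p = 3.76e-05). Its partner Rad50 stood at 130 to 172 CPM and at 69.4, 83.7, 66.6 and 79.9 CPM (log2 -1.01 ± 0.21, adjusted p = 0.00115), while the third subunit, Mre11a, had a value of -0.35 and did not pass. None of these 3 ranges for Ung, Nbn and Rad50 overlapped between the stages. The 3 were chosen by their calls, and no share of all genes with ranges apart between the stages is given. Parp1 stood at 309 to 403 CPM in DN3 and at 118, 206, 112 and 128 CPM in DP turnover (log2 -1.34 ± 0.23, adjusted p = 0.000186), and Parp2 was lower by log2 -0.85 ± 0.24.

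The recombination genes lower in DP turnover by edgeR were Xrcc3 (log2 -1.66 ± 0.48, adjusted p = 0.0105), Exo1 (-1.30 ± 0.42) and Rad54l (-1.27 ± 0.37, adjusted p = 0.0115). Xrcc3 stood at 33.5, 23.1, 26.9 and 22.8 CPM in DN3 turnover and at 1.73, 18.3, 8.38 and 4.77 CPM in DP turnover. Its value was -2.36 without the DP turnover library RP1140B, and its call was lost with the A and B turnover libraries of a number summed. That summing also ended the calls between the stages in turnover of Rad54l, Exo1, Fanci, Rad50, Parp2 and Smc5. The Exo1 call was also lost in edgeR without the DP turnover library RP1140B (adjusted p = 0.0707) or RP1141A (adjusted p = 0.0624). Rad54l stood at 110, 135, 123 and 126 CPM in DN3 and at 42.8, 77.3, 36.2 and 47.9 CPM in DP turnover. Chek1 was lower by log2 -1.05 ± 0.27 (adjusted p = 0.00531).

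The 5 members that were higher in DP turnover came from 5 roles. Atr stood at 78.8, 52.6, 36.7 and 70.6 CPM in DN3 and at 105, 127, 133 and 156 CPM in DP turnover (log2 1.14 ± 0.25, adjusted p = 0.00166). Neil3 was higher by 1.21 ± 0.24 (adjusted p = 0.000541), with every DP library at 160 CPM or above and every DN3 library at 88.3 CPM or below. Mus81, the nuclease that cuts joint molecules, stood at 40.0, 34.7, 30.8 and 51.8 CPM in DN3 and at 86.8, 97.9, 76.6 and 112 CPM in DP turnover (1.26 ± 0.26, adjusted p = 0.000919). Smc5 stood at 119, 109, 125 and 110 CPM in DN3 and at 226, 169, 243 and 194 CPM in DP turnover (0.86 ± 0.22, adjusted p = 0.00463). Fanci, the partner of Fancd2, stood at 39.2, 34.5, 26.5 and 39.9 CPM and at 65.9, 54.0, 64.0 and 68.2 CPM (0.86 ± 0.25, adjusted p = 0.0116). All 5 ranges were apart between the stages, but the 5 were chosen by their calls and no share of all genes is given. Exons of Fanci overlap those of Polg on the opposite strand over 921 bases, and those of Atr overlap 1700065D16Rik over 726 bases.

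In autonomy, 27 members differed between the stages. DP cells had 1 member above and 26 below DN3 cells, where 23.7% of all genes tested were higher and 25.2% lower. The median log2 difference was -0.95 over the members and 0.00 over all genes. The 26 comprised 9 of 11 recombination genes, 4 of 6 Fanconi genes, 6 of 8 sensors and kinases, 3 of 4 base excision genes, Polq, Eme1, and 2 of 3 SMC5/6 genes.

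**Figure D4:**
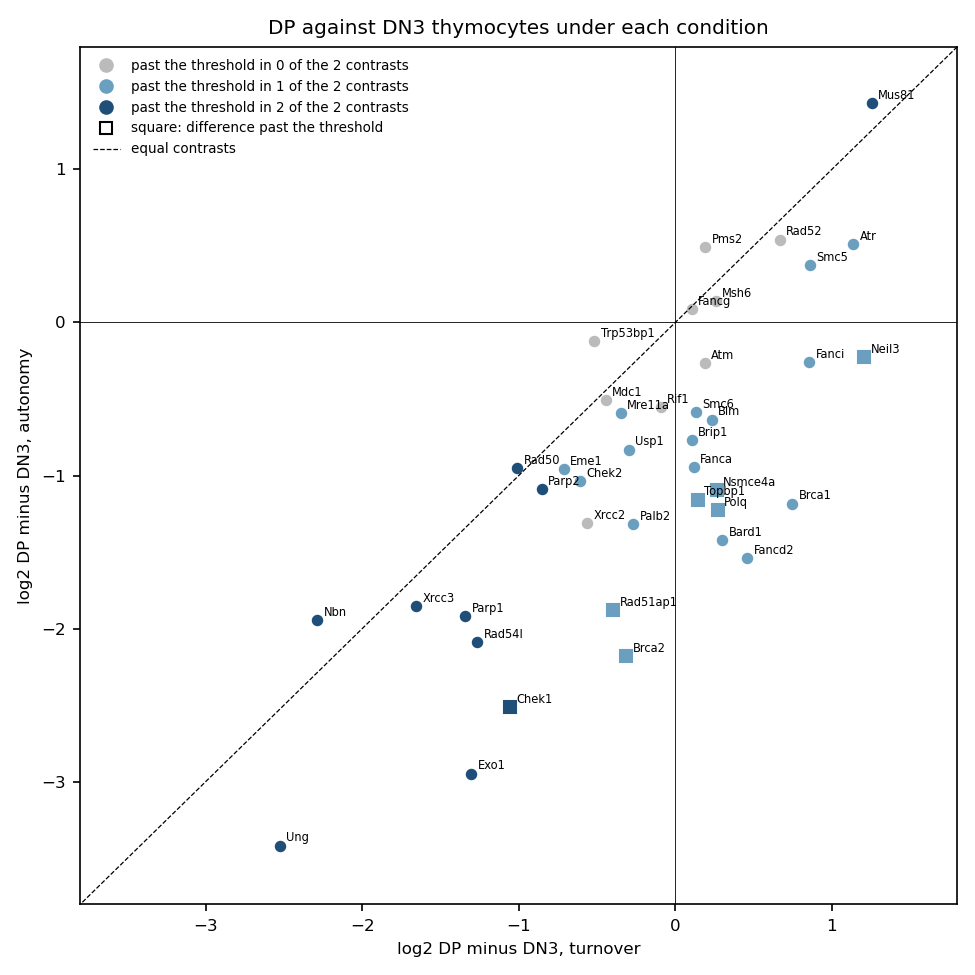
Log2 difference DP minus DN3 of each of the 40 genes in turnover (x axis) and in autonomy (y axis); darker points passed in more of the 2 contrasts and squares mark the 7 whose difference between the contrasts passed. Most points lie below the dashed line of equal contrasts, and Ung, at -2.52 and -3.42, is the lowest in both.

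Ung stood at 7.92, 10.5, 7.27, 21.6 and 9.30 CPM in DP autonomy, 10.7-fold below the 105 to 152 CPM of DN3 autonomy (log2 -3.42 ± 0.30, adjusted p = 1.92e-08). Exo1 stood at 34.1, 15.1, 4.26, 31.4 and 33.2 CPM in DP autonomy, 7.72-fold below DN3 autonomy (log2 -2.95 ± 0.40, adjusted p = 4.33e-06). Chek1 was 5.71-fold lower (log2 -2.51 ± 0.26, adjusted p = 1.19e-07). For none of these 3 genes, chosen by their calls, did a DP library reach the lowest DN3 library. No share of all genes is given for this property.

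The other recombination genes that fell were Brca2 (log2 -2.18), Rad54l (-2.09), Rad51ap1 (-1.88 ± 0.23, adjusted p = 1.68e-06), Xrcc3 (-1.85), Bard1 (-1.42), Palb2 (-1.32), Brca1 (-1.18) and Blm (-0.63). In the Fanconi group Usp1 stood at 258 to 436 CPM in DN3 and at 120, 200, 176, 169 and 193 CPM in DP autonomy (-0.83 ± 0.19, adjusted p = 0.00103), and Fanca at 36.0, 41.5, 36.8, 26.4 and 44.0 CPM and at 14.7, 23.8, 17.6, 18.6 and 20.6 CPM (-0.95 ± 0.27, adjusted p = 0.00704). Fancd2 (-1.54) and Brip1 (-0.77) also fell. Exons of Fanca overlap those of Zfp276 on the opposite strand over 920 bases. Shorter overlaps of this kind included Palb2 with Gm16326 (414 bases), Fancd2 with Fancd2os (257 bases) and Mre11a with Ankrd49 (154 bases).

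Nbn stood at 39.8, 57.1, 75.0, 48.3 and 90.9 CPM in DP autonomy, 3.84-fold below DN3 autonomy (log2 -1.94 ± 0.30, adjusted p = 2.37e-05). Topbp1 (-1.16), Chek2 (-1.03), Rad50 (-0.95) and Mre11a (-0.59) fell with it. Parp1 stood at 194, 133, 79.1, 113 and 92.4 CPM in DP autonomy and at 387 to 511 CPM in DN3 autonomy (-1.92 ± 0.21, adjusted p = 3.61e-07), and Parp2 fell by log2 -1.09. Polq (-1.23 ± 0.25, adjusted p = 0.000358), Nsmce4a (-1.09 ± 0.20, adjusted p = 0.000147) and Smc6 (-0.59 ± 0.15, adjusted p = 0.00332) completed the later roles.

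The nuclease partners went apart. Mus81 stood at 44.0, 16.1, 36.6, 29.7 and 30.7 CPM in DN3 autonomy and at 106, 74.1, 83.0, 97.4 and 61.7 CPM in DP autonomy (log2 1.43 ± 0.23, adjusted p = 4.33e-05), and was the only member above in DP cells. Its partner Eme1 stood at 40.3, 31.5, 32.1, 37.2 and 31.3 CPM and at 8.10, 14.6, 17.3, 19.6 and 28.5 CPM (-0.96 ± 0.31, adjusted p = 0.0148). Neither pair of ranges overlapped, with no share of all genes given for this. Exons of Mus81 overlap those of Efemp2 on the opposite strand over 173 bases. Those of Eme1 likewise overlap Lrrc59 over 221 bases and Mrpl27 over 75 bases.

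Leaving out the DN3 autonomy library RP1134 ended the calls of Brca1, Palb2, Blm, Brip1 and Mre11a and added lower Mdc1 and higher Atr and Smc5. Leaving out the DP autonomy libraries RP1133 and RP1135 kept 20 of the 27 calls.

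S-phase genes were lower in DP cells in both conditions, 20 of 28 in turnover and 28 of 28 in autonomy, with medians of -0.98 and -2.32. Mcm6 and Mcm2, subunits of the replicative helicase, were lower by log2 -1.67 ± 0.17 and -1.61 ± 0.18 in turnover and by -3.02 ± 0.16 and -2.78 ± 0.17 in autonomy. Of 114 further repair genes, 14 were higher and 19 lower in turnover, beside 15.8% and 19.1% of all genes tested. In autonomy 16 were higher and 50 lower, beside 23.7% and 25.2% of all genes tested. Dclre1c was higher in both, with log2 1.76 ± 0.24 and 2.48 ± 0.22, and stood at 37.2 to 59.7 CPM in DN3 turnover, 14.6 to 33.3 CPM in DN3 autonomy, 150 to 209 CPM in DP turnover and 106 to 167 CPM in DP autonomy. The higher genes also included Neil1, Nsmce1 and Rev3l in turnover (1.39, 1.35 and 1.57), and in autonomy Neil1 and the end-joining ligase gene Lig4 (1.61 and 1.504). The lower genes included the abasic-site nuclease gene Apex1 (-4.09 ± 0.45), Tipin (-1.48), Rpa2 (-1.27) and the Ku subunit gene Xrcc5 (-1.35) in turnover, and Rpa2 (-2.14), Tipin (-2.38), Timeless (-2.17) and Xrcc5 (-2.15) in autonomy.

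The 8 members that passed in none of the 5 comparisons by edgeR were Atm, Fancg, Mdc1, Msh6, Pms2, Rad52, Rif1 and Xrcc2. Other analyses called some of them between the stages: Xrcc2 in autonomy by DESeq2 and voom, Rad52 in turnover by DESeq2, and Rad52 and Pms2 in autonomy with A and B summed. Mdc1 and Rif1 were each called in autonomy in at least 1 fit that left out a library. Msh6, which recognises base mismatches, had mean levels of 217 ± 39.3, 215 ± 43.1, 258 ± 36.7 and 236 ± 40.8 CPM in DN3 turnover, DN3 autonomy, DP turnover and DP autonomy (SD, n = 4 or 5). Fancg, a core complex subunit, had 42.5 ± 10.8, 39.4 ± 4.53, 45.4 ± 10.6 and 41.8 ± 8.89 CPM in the same order. The means of both genes differed between the groups by about their SD or less. Atm ranged widely within groups, from 32.6 to 146 CPM among the 4 DP turnover libraries. Xrcc2 was the nearest to the threshold, lower in DP than in DN3 autonomy by log2 -1.31 ± 0.54 (adjusted p = 0.0502).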

How the data were processed

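Per the labels' protocols, sorted cells were lysed, RNA was captured with oligo-dT beads and Pico Nextera libraries followed. The authors deposited raw whole-number counts per Ensembl gene, and the tools HISAT2, featureCounts, FastQC and DESeq2 and the builds mm10 and GRCm38 are named, without versions or strand setting, per the submitters' processing notes. The authors' deposited DESeq2 tables give log2 fold changes and adjusted p-values, used only to compare calls. Here edgeR 4.0.16 (R 4.3.3) fitted the counts by quasi-likelihood (TMM, filterByExpr, group means), and Benjamini-Hochberg adjustment ran over all genes tested, threshold 0.05. DN3 and DP libraries were fitted apart for autonomy against turnover, and all 18 together for the other contrasts. The SE was the log2 change divided by the root of F. CPM used TMM factors of all 18 libraries. The model was tested on simulated counts. A true log2 change of 1 was recovered for 47.6% of changed genes in DN3 cells and 29.5% in DP cells. The share was 3.12% for the difference, 34% for DP against DN3 in turnover and 25.5% in autonomy. At a log2 change of 2 the shares were 80%, 62.9%, 42.6%, 64% and 74.3% in the same order. A member that did not pass may therefore still differ. The changed genes were drawn at random from all genes tested. They were fewer than the genes called in the data, except for autonomy against turnover in DP cells. Recovery of members in the real fits may thus differ from these shares. Alternatives were DESeq2 1.42.0, voom of limma 3.58.1, other scaling, no filter, summed A and B libraries, a replicate block and each library left out. Removals of library pairs, named in the closing section, were chosen after seeing the data. The members, gene lists, comparisons and tests were chosen with earlier results of these data known. Genes named with per-library values are, per role, the called members with the smallest adjusted p, at most 2 per direction, and others named beside them were chosen after their values were seen. Coordinates and exon overlaps come from GENCODE M21 (GRCm38), promoters from RefSeq (GRCm38.p6), 1 window a gene. Some genes of the wider repair list are not reported here by name.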

Additional observations from a re-analysis of the deposited data

Results flagged for a closer look

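In 160 sets of 4 or 5 libraries (40 genes in 4 groups), 19 had a library whose gap to the nearest other passed Dixon's 95% value for the group size. Chance flags about 1 set in 20. In DN3 turnover, RP1140B was high in Brca1 (43.1 CPM, others 18 to 20.1) and Fanca (49.9 CPM, others 24.7 to 27.0). RP1140A was low there in Rad51ap1 (52.4 CPM, others 66.6 to 68.7) and Smc6 (233 CPM, others 279 to 287). RP1141B was high in Exo1 (101 CPM, others 83.9 to 85.9) and low in Trp53bp1 (111 CPM, others 139 to 143) and Mdc1 (41.6 CPM, others 79.0 to 86.5). In DN3 autonomy, RP1134 was high in Usp1 (436 CPM, others 258 to 296), Rif1 (864 CPM, others 193 to 373) and Smc5 (265 CPM, others 110 to 135).

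In DP turnover, RP1141A was high in Xrcc2 (10.6 CPM, others 3.73 to 4.33) and Topbp1 (252 CPM, others 148 to 164). In DP autonomy, RP1135 was high in Xrcc2 (8.58 CPM, others 0.935 to 2.85). RP1138 was high there in Fancd2 (39.8 CPM, others 6.41 to 15.6), Chek2 (79.4 CPM, others 23.4 to 36.1) and Msh6 (307 CPM, others 208 to 230). RP1137 was high in Atm (106 CPM, others 56.8 to 70.5), Mdc1 (85.7 CPM, others 46.0 to 50.4) and Ung (21.6 CPM, others 7.27 to 10.5).

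The autonomy effect differed between DP and DN3 cells, by the interaction test of edgeR, for 7 members. The differences, DP minus DN3 on the log2 scale, were -1.87 for Brca2, -1.48 for Rad51ap1, -1.46 for Chek1, -1.30 for Topbp1, -1.43 for Neil3, -1.50 for Polq and -1.36 for Nsmce4a.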

How the results depend on the processing

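No called member changed sign under any setting, and the causes of the changes in count were not tested. In DN3 cells the 9 higher members became 14 with DESeq2, 3 (Exo1, Chek1 and Ung) with the A and B turnover libraries of a number summed, and 2 in a fit of all 18 libraries; the 1 lower member became 0 in the last pair. In DP cells the 2 lower members became 5 with DESeq2, 4 with voom, 4 with all 18 libraries and 1 with A and B summed. The 7 lower differences became 12 with DESeq2 and 1, Nsmce4a, with A and B summed. The 5 higher and 9 lower members of DP against DN3 in turnover became 3 and 4 with A and B summed, and the 1 higher member of DP against DN3 in autonomy became 2 with DESeq2, 3 with voom and 4 with A and B summed. After seeing the data, RP1134 and RP1141B were left out together, which gave 3 lower differences and 3 higher members for DP against DN3 in autonomy, and RP1133 and RP1135 of DP autonomy, which gave 1 lower member in DP cells.

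Leaving out each library in turn gave 4 to 10 higher and 1 to 1 lower members in DN3 cells, 0 to 0 higher and 1 to 3 lower in DP cells, and 0 to 0 higher and 6 to 9 lower differences. It gave 5 to 6 higher and 8 to 10 lower members for DP against DN3 in turnover, and 1 to 3 and 22 to 27 in autonomy. With the replicate number as a block, 4 of the 7 lower differences were called (Brca2, Chek1 and Polq were lost), and DP against DN3 in autonomy had 2 higher members and 19 lower (Bard1, Palb2, Blm, Brip1, Mre11a, Eme1 and Smc6 were lost). Same-numbered DN3 and DP libraries correlated in their deviations at 0.001 to 0.052, all positive, and differently numbered ones at -0.063 to 0.056. These ranges overlap, so they do not settle whether the numbers pair the samples. Counts over all genes moved by more than 1.5 times too: the 703 higher and 899 lower genes in DN3 cells became 170 and 337 with A and B summed and 425 and 581 with all 18 libraries, with 1095 higher under DESeq2. The 89 and 89 in DP cells became 377 and 362 with DESeq2, 210 and 224 with voom, and 8 and 8 with A and B summed, with 166 lower in the fit of all 18 libraries. They became 6 and 3 without RP1133 and RP1135. The 332 and 301 differences became 560 and 477 with DESeq2, 69 and 76 with A and B summed, and 143 and 145 with the block, and 193 were higher without RP1134 and RP1141B. The 1820 and 2201 in turnover became 1011 and 1159 with A and B summed.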
